A study of Mus musculus with 32 samples.

Results

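Microglia of P140 SOD1G93A mice that carried high LAG-3 on their surface were compared with WT microglia across the whole transcriptome. The comparison used the 5 LAG-3-high and the 4 WT libraries of the 32 RNA-seq libraries of the study, chosen by their labels, and all genes: 16508 of the 74021 genes in the table had enough counts to be tested. Cells of both groups were CD11b+/CD45int cells sorted from lumbar spinal cord. The LAG-3-high cells came from mice with the human mutant SOD1 transgene, a model of amyotrophic lateral sclerosis (ALS), and were the fraction with the brighter LAG-3 stain. The WT cells came from mice without the transgene. Neither their age nor whether they passed a gate on LAG-3 is given in the sources used here. SOD1G93A genotype and LAG-3 level therefore changed together, possibly with the gate, and their parts in any difference cannot be told apart.

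LAG-3 is an inhibitory receptor best known from exhausted T cells, where it binds MHC class II and restrains activation. Resting microglia are kept in a homeostatic state marked by purinergic and chemokine receptors that survey the tissue. In neurodegeneration many of them take on the disease-associated (DAM) state, in which the receptor TREM2 with its adaptor TYROBP senses lipid and debris, and genes for lipid handling, lysosomal digestion and secreted factors are induced while homeostatic genes decline.

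Levels are given as CPM, counts per 1000000 after TMM scaling, and fold changes as LAG-3-high over WT on the log2 scale, on which every rise or fall by a stated amount is also given. A gene was called higher or lower when the quasi-likelihood test of edgeR gave a Benjamini-Hochberg adjusted p below 0.1 and the absolute log2 fold change was above 1. These p-values rest on the spread between libraries, as the labels do not say how many mice went into each. That spread was pooled over WT, LAG-3-high and LAG-3-low libraries. It is therefore not the spread of WT alone, whose libraries agreed less with each other than the LAG-3-high libraries did. CPM is not divided by gene length, so levels are compared between groups and not between genes. As the cells were sequenced in bulk, a smaller share of cells with a transcript and less of it in each cell give the same value.

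The LAG-3-high libraries totalled 15424178 to 21407655 counts and the WT libraries 9403475 to 18882504. Ranks of gene levels correlated with rho 0.949 to 0.955 between LAG-3-high libraries and with only 0.656 to 0.817 between WT libraries. WT replicates 1 and 4 stood apart. The nuclear RNAs *Gm59785* and *Malat1* took 9.13% and 8.82% of their counts, against 1.41% and 2.97% in WT replicates 2 and 3 and 0.313 to 0.448% in the LAG-3-high libraries. The 13 protein genes of the mitochondrial genome took 2.84% and 3.45% of counts in WT replicates 1 and 4, against 0.796% and 1.41% in replicates 2 and 3. A list of 15 neutrophil genes summed to 6369, 37072, 9959 and 70631 CPM in WT replicates 1 to 4 and to 484 to 666 CPM in the LAG-3-high libraries. Counts of calls in each gene list are given with all libraries and, in brackets, without WT replicates 1 and 4.

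**Figure D1:**
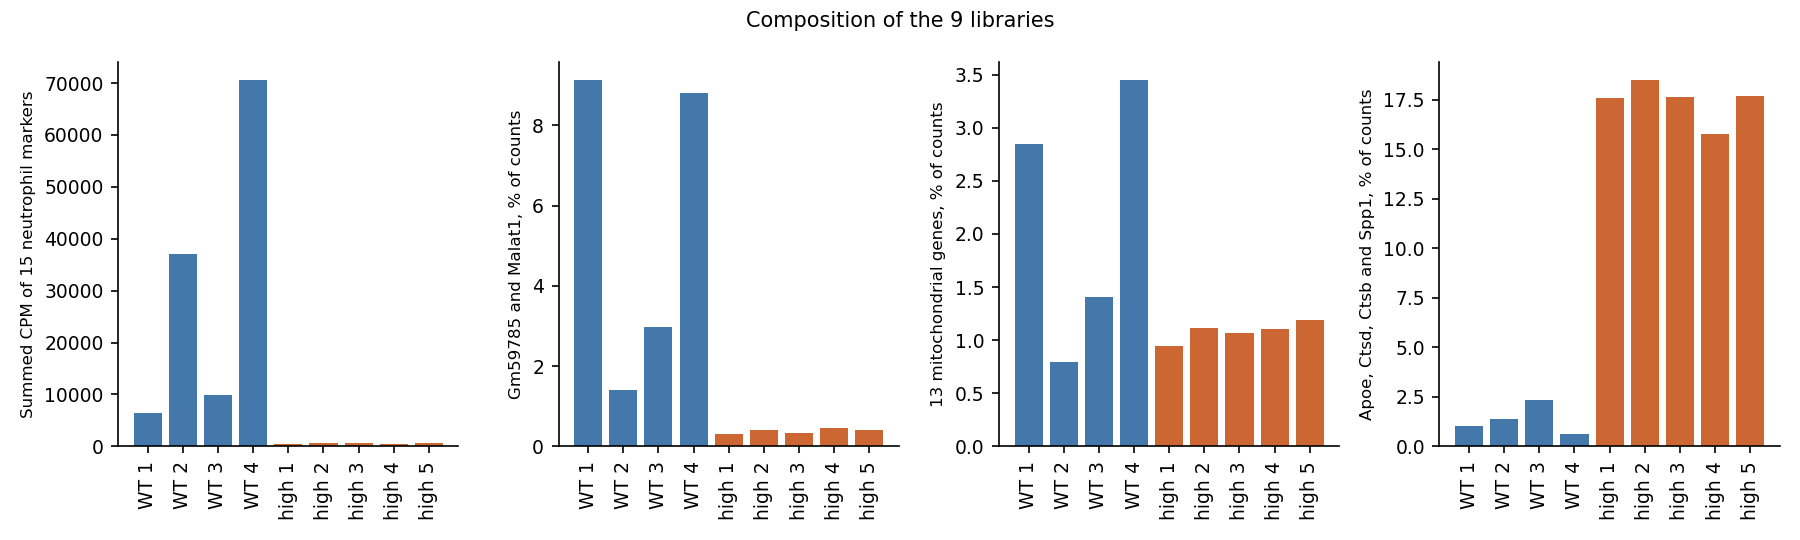
Composition of the 4 WT (blue) and 5 LAG-3-high (orange) libraries, 1 bar per library: the summed CPM of 15 neutrophil markers, and the percentage of counts from *Gm59785* with *Malat1*, from 13 mitochondrial genes, and from *Apoe*, *Ctsd*, *Ctsb* and *Spp1*. WT replicates 1 and 4 exceed 8% for *Gm59785* with *Malat1*, and the 5 LAG-3-high libraries lie between 15.8% and 18.5% in the last panel.

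*Lag3* separated the groups in the direction of the gate. It reached 167, 163, 176, 146 and 195 CPM in the LAG-3-high libraries and 1.07, 6.88, 9.99 and 0.508 CPM in the WT libraries. Every LAG-3-high library lay above every WT library (log2 fold change 5.20, SE 0.72, edgeR adjusted p = 0.000238). The two-sided exact permutation test gave p = 0.0159, the smallest that 4 against 5 libraries allow. *Sod1*, superoxide dismutase 1, was at 385, 368, 411, 369.5 and 354 CPM in the LAG-3-high and 74.4, 6.19, 9.20 and 29.9 CPM in the WT libraries, again without overlap (log2 fold change 3.65, edgeR adjusted p = 0.000704). Whether reads of the human transgene were counted as mouse *Sod1* was not tested.

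In all, 2000 genes were called higher (12.1% of those tested) and 2464 lower (14.9%), and for 1509 and 1216 of them the 2 groups did not overlap. Without WT replicates 1 and 4, 2037 of 18594 genes were called higher (11.0%) and 1563 lower (8.41%). Of the calls made with all libraries, 1292 higher and 1019 lower genes were also called without those replicates, and 1 was called in the opposite direction. Leaving out WT replicate 2 alone raised the count of higher genes to 3114. Without TMM factors 1488 genes were called higher and 3234 lower. Of 549 tested genes with no count in any WT library, 466 were called higher. The filter kept such genes only through the other libraries, so they could not be called lower. Of the lower genes, 133 had no count in any LAG-3-high library. Fitted changes of more than 5 on the log2 scale numbered 678 among the higher and 278 among the lower genes. Where a group had no count, such fitted values depend on the prior count. Protein-coding genes made up 81.8% of the higher and 49.9% of the lower genes, against 72.6% of all genes tested. The median transcript length was 3048 bases for the higher and 1478 bases for the lower genes, against 2642 bases overall. With a correction for length and GC content, 1904 genes were called higher and 1993 lower.

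The plot of shares of each list shows where these calls fell. Among the lists of microglial states and pathways, DAM markers, lysosomal genes, and growth factors with matrix genes had the highest shares of members called higher, at 85.7%, 59.4% and 59.3%. Among the same lists, homeostatic genes had the highest share called lower, 13 of 32. The lists were described by these counts only, and no test compared them.

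**Figure D2:**
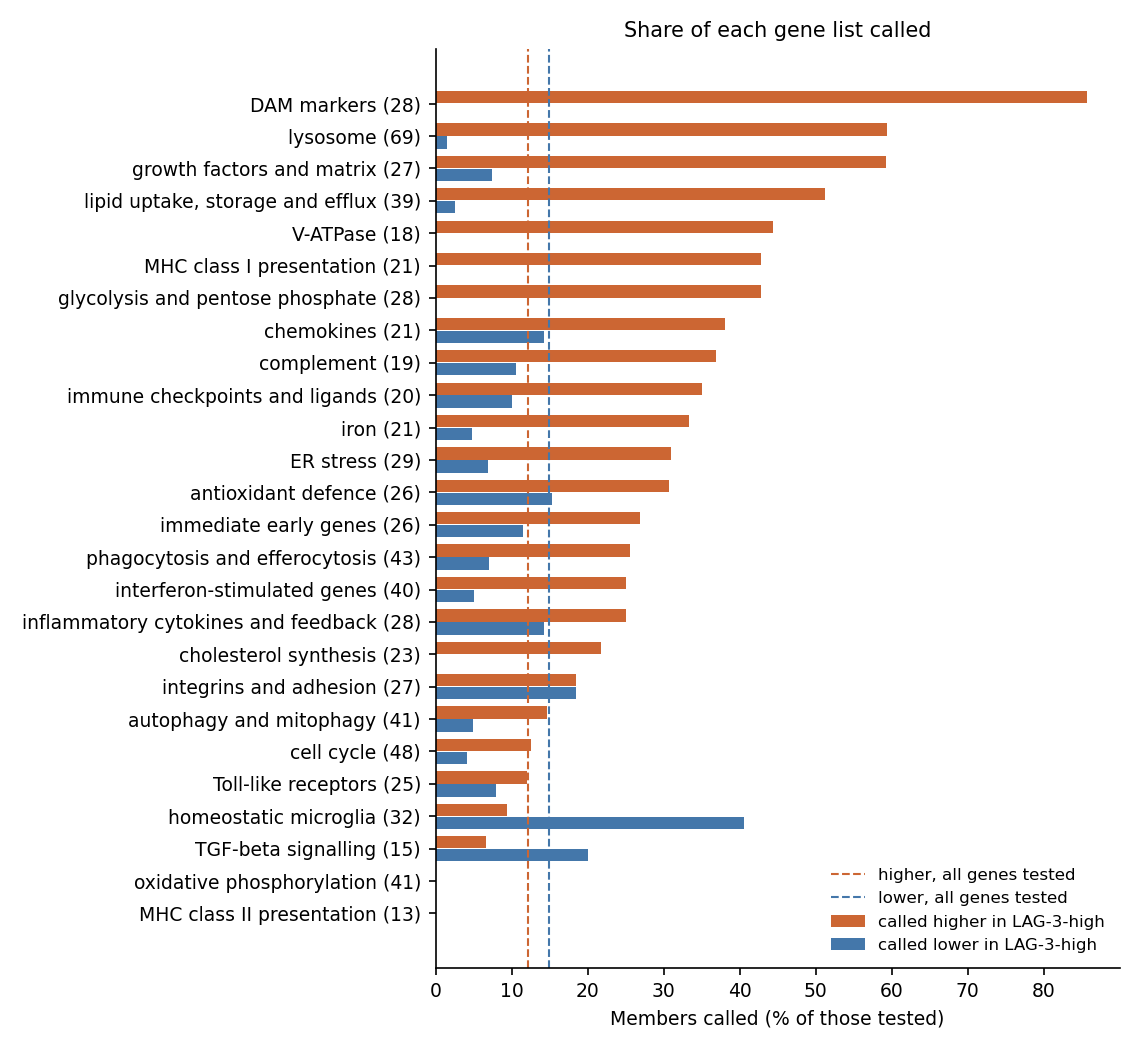
Percentage of the tested members of each gene list (number tested in brackets) called higher (orange bars) or lower (blue bars) in LAG-3-high microglia, relative to WT. Dashed lines give the shares over all 16508 genes tested, 12.1% higher and 14.9% lower, and 24 of 28 DAM markers were called higher.

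The DAM markers rose almost as a block: 24 of 28 were called higher (28 without WT replicates 1 and 4), with a median log2 fold change of 3.17 over the list against -0.08 over all genes tested. *Apoe*, the main apolipoprotein of the nervous system, was at 2182, 148, 4044 and 697 CPM in the WT libraries and at 91008, 94700.1, 86508, 70145 and 94531 CPM in the LAG-3-high libraries (log2 fold change 5.63, SE 0.73, edgeR adjusted p = 0.000151). It alone made up 6.41 to 8.11% of all counts in the LAG-3-high libraries and at most 0.444% in WT. *Spp1*, osteopontin, was at 106, 19.6, 82.2 and 22.4 CPM in WT and 24022, 22405, 23515, 20965 and 19377 CPM in LAG-3-high libraries (log2 fold change 8.58, edgeR adjusted p = 1.92e-06). Neither gene's groups came close to overlapping. Together with the proteases *Ctsd* and *Ctsb*, both genes held 15.8 to 18.5% of the LAG-3-high counts and 0.607 to 2.31% of the WT counts.

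Several surface markers of the DAM state were scarce in WT microglia. *Itgax*, the integrin chain CD11c, was at 2.29, 0.0871, 8.81 and 0 CPM in WT and 678, 724, 703, 683 and 702 CPM in LAG-3-high libraries. *Clec7a*, the lectin receptor Dectin-1, was at 10.7, 39.3, 78.9 and 54.9 CPM in WT and 1525, 1425, 1478, 1552 and 1561 CPM in LAG-3-high libraries. *Gpnmb*, a glycoprotein of stressed lysosomes, was at 0.0510, 2.61, 8.24 and 0.0634 CPM in WT and 1736, 1572, 1111, 531 and 802 CPM in LAG-3-high libraries. In all 3 the lowest LAG-3-high library exceeded the highest WT library many times over, and the fold changes on the log2 scale were 7.94, 5.04 and 8.71 (edgeR, adjusted p = 0.00025, 5.02e-06 and 0.0003). *Axl*, a receptor for apoptotic cells, rose from a WT mean of 36.2 ± 36.7 CPM (SD, n = 4) to 2367 ± 205 CPM (SD, n = 5). *Cd63* and *Cd68*, of late endosomes and lysosomes, were already at 336 to 1525 and 631 to 1246 CPM in WT and rose by 2.29 and 1.31 on the log2 scale. *Cd83*, an activation marker, and *Ccl6*, a chemokine, rose by 2.70 and 1.57. Among the surface markers, the smallest called differences were in *Cd9*, a tetraspanin, and *Cd52*, a small GPI-anchored glycoprotein, with log2 fold changes of 1.17 and 1.07. *Cd9* was at 1245 to 3227 CPM in WT. Without WT replicate 2, these were 0.98 and 0.88, and neither was called; *Cd52* was not called without WT replicate 3 either (0.83).

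Secreted and lipid-binding members showed the same separation. *Cst7*, cystatin F, an inhibitor of lysosomal cysteine proteases, was at 4.84, 7.23, 6.32 and 0 CPM in WT and 1487, 1735, 1532, 1159 and 1383 CPM in LAG-3-high libraries (log2 fold change 8.31, edgeR adjusted p = 3.53e-05). *Igf1*, insulin-like growth factor 1, was at 0.102, 0, 15.4 and 0 CPM in WT and 542, 508, 431, 360.2 and 498 CPM in LAG-3-high libraries. *Csf1*, the ligand of the microglial survival receptor CSF1R, was at 0, 0.436, 0.226 and 80.0 CPM in WT and 468, 642, 772, 678 and 727 CPM in LAG-3-high libraries. For both, a single WT library carried nearly all of the WT signal, and even that library lay below every LAG-3-high library. *Csf1* was not called when the 2 groups were fitted alone. *Lpl*, lipoprotein lipase, *Ch25h*, which makes 25-hydroxycholesterol, *Fabp5*, a fatty acid carrier, and *Lgals3*, galectin-3, rose by 4.73, 9.01, 5.86 and 3.20 on the log2 scale. *Cxcl16*, a membrane-bound chemokine, rose by 3.15.

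The 4 DAM markers that were not called include the receptor complex itself. *Trem2* was at 1675, 902, 989 and 1616 CPM in WT and 2111, 2015, 2032, 1865 and 1978 CPM in LAG-3-high libraries. All 5 LAG-3-high libraries lay above all WT libraries, but the log2 fold change of 0.63 fell short of 1 (edgeR adjusted p = 0.0327). *Tyrobp*, its signalling adaptor, was at 1986, 727, 842 and 4199 CPM in WT and 3183, 3567, 3281, 2530.3 and 3166 CPM in LAG-3-high libraries, and the groups overlapped (log2 fold change 0.70, edgeR adjusted p = 0.223). Without WT replicate 4 it was at 1.42 and called. With the correction for length and GC content both were called higher, at 1.08 for *Trem2* and 2.05 for *Tyrobp*. The chemokines *Ccl3* and *Ccl4* varied widely in WT and were not called, although *Ccl3* was with that correction (3.46). *Ccl3* was at 153, 4.79, 0.226 and 366 CPM in WT and 343, 465, 268, 235 and 324 CPM in LAG-3-high libraries. *Ccl4* was at 151, 0, 0 and 1135 CPM in WT and 226, 513, 389, 367 and 390.2 CPM in LAG-3-high libraries. Without WT replicates 1 and 4 all 4 were called higher, with log2 fold changes of 1.12 for *Trem2*, 2.05 for *Tyrobp* and 7.12 for *Ccl3*, while *Ccl4* then had no count in WT.

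**Figure D3:**
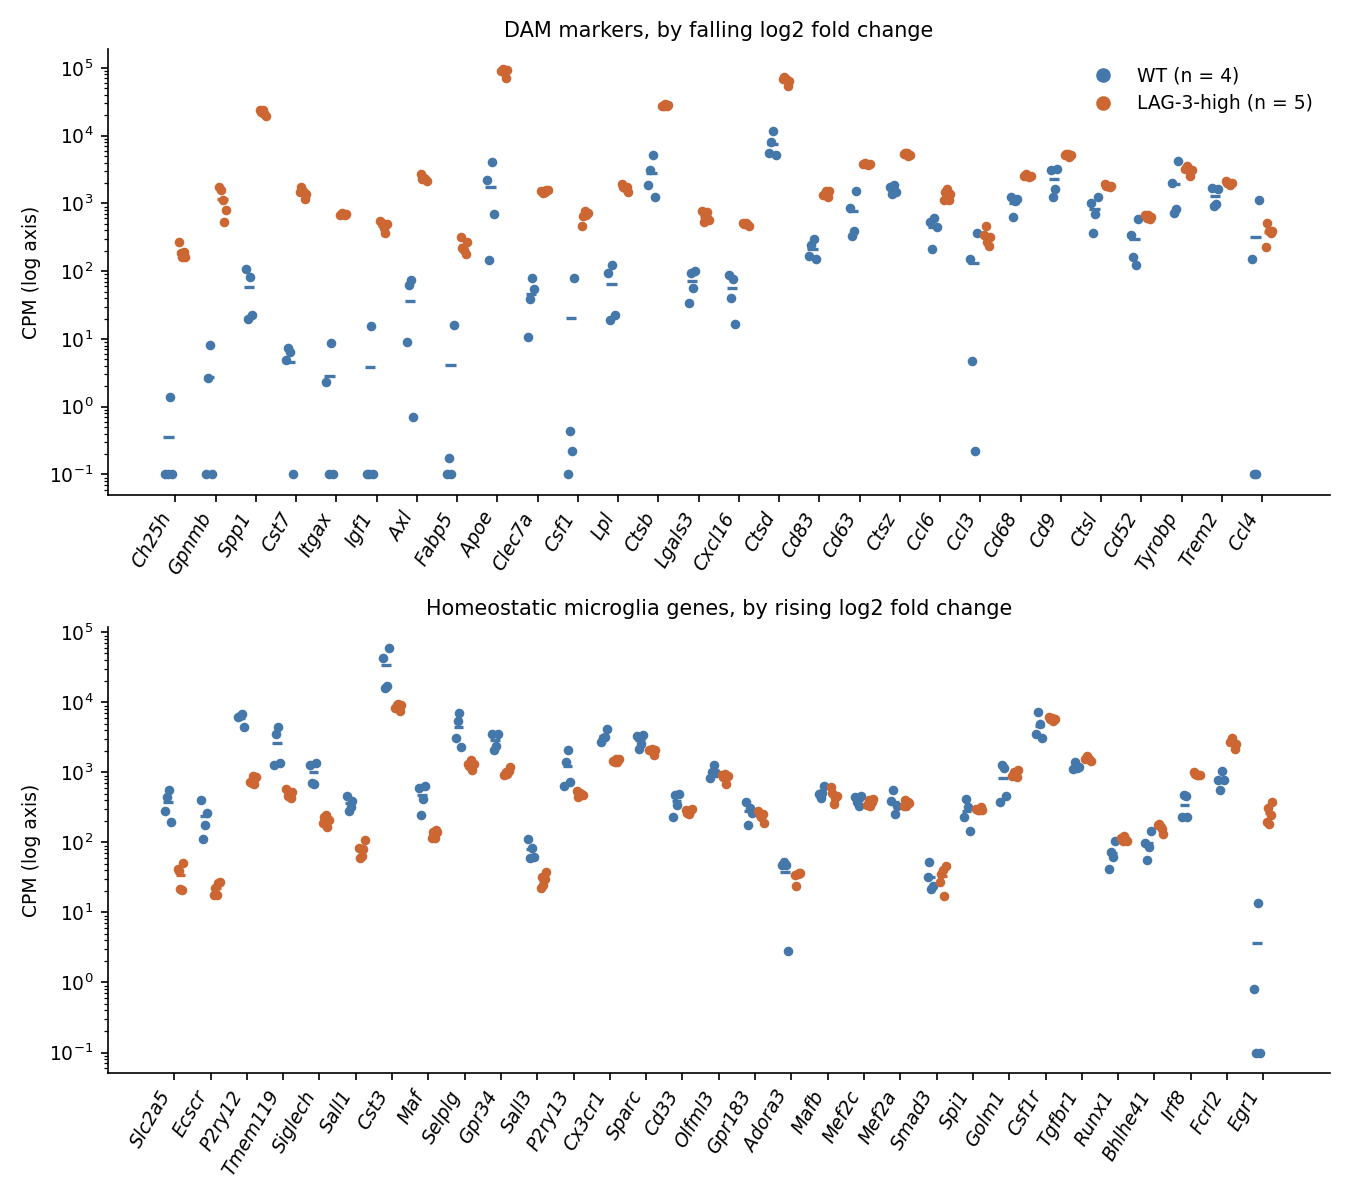
CPM (log axis) of 28 DAM markers and 31 of the 32 homeostatic genes in each WT (blue, n = 4) and LAG-3-high (orange, n = 5) library, with horizontal bars at group means and values under 0.1 CPM drawn at 0.1. Most DAM markers show separate groups with LAG-3-high on top, *Slc2a5* to *Cx3cr1* show the reverse, and genes such as *Spi1* and *Csf1r* overlap.

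Homeostatic genes fell in part. Of 32, 13 were called lower (12 without WT replicates 1 and 4) and 3 higher (4 without them), with a list median of -0.24 on the log2 scale. Called lower were 4 of 6 purinergic and chemokine receptors, 6 of 14 surface genes and 3 of 12 transcription factors, and no test compared these kinds. Receptors by which resting microglia sense nucleotides and fractalkine fell. *P2ry12*, the ADP receptor, was at 6096, 6358, 6821 and 4446 CPM in WT and 721, 717, 877, 693 and 855 CPM in LAG-3-high libraries. *Cx3cr1*, the fractalkine receptor, was at 2706, 3117, 3250.2 and 4131 CPM in WT and 1438, 1408, 1570.1, 1409 and 1574 CPM in LAG-3-high libraries. *Tmem119*, a microglial surface protein, was at 1261, 3582, 4421 and 1386 CPM in WT and 574, 463, 524, 427 and 533 CPM in LAG-3-high libraries. No LAG-3-high library reached the lowest WT library in any of the 3, and the log2 fold changes were -2.94, -1.16 and -2.40 (edgeR adjusted p = 3.50e-06, 0.000409 and 0.000374). *Gpr34*, a receptor for lysophosphatidylserine, *Selplg*, a ligand of selectins, *Siglech*, a sialic acid receptor, and *Slc2a5*, a fructose transporter, changed by -1.49, -1.79, -2.26 and -3.43. *Ecscr*, a small membrane protein, and *P2ry13*, another ADP receptor, changed by -3.42 and -1.30. Without WT replicate 3, *P2ry13* was at -0.90 and not called. *Cst3*, cystatin C, was at 42500.3, 15968, 17339 and 60840.0 CPM in WT and 7437 to 9582 CPM in LAG-3-high libraries. Its log2 fold change moved from -1.96 to -0.89 without WT replicates 1 and 4, and the call was lost.

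The transcription factors of microglial identity did not move as one. *Sall1*, which maintains microglial identity, its relative *Sall3* and *Maf* were called lower, with log2 fold changes of -2.21, -1.44 and -1.84. *Sall1* was at 467, 282, 318 and 390.4 CPM in WT and 82.3, 59.9, 63.0, 80.0 and 109.5 CPM in LAG-3-high libraries, with no overlap. *Irf8*, a factor of myeloid development, rose by 1.44, although with the correction for length and GC content it was 0.91 and not called. *Egr1*, an immediate early factor, was at 0.816, 0, 13.7 and 0 CPM in WT and 194, 307, 185, 245 and 383 CPM in LAG-3-high libraries. *Spi1*, which encodes the myeloid factor PU.1, had a log2 fold change of 0.11 and its groups overlapped. *Csf1r*, the receptor on which microglia depend for survival, was not called (0.32), with 5434 to 6196 CPM in LAG-3-high and 3055 to 7192 CPM in WT libraries. *Fcrl2*, formerly *Fcrls*, was the homeostatic surface gene that rose, from 567 to 1034 CPM to 2138 to 3097 CPM (log2 fold change 1.74, edgeR adjusted p = 3.53e-05).

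**Figure D4:**
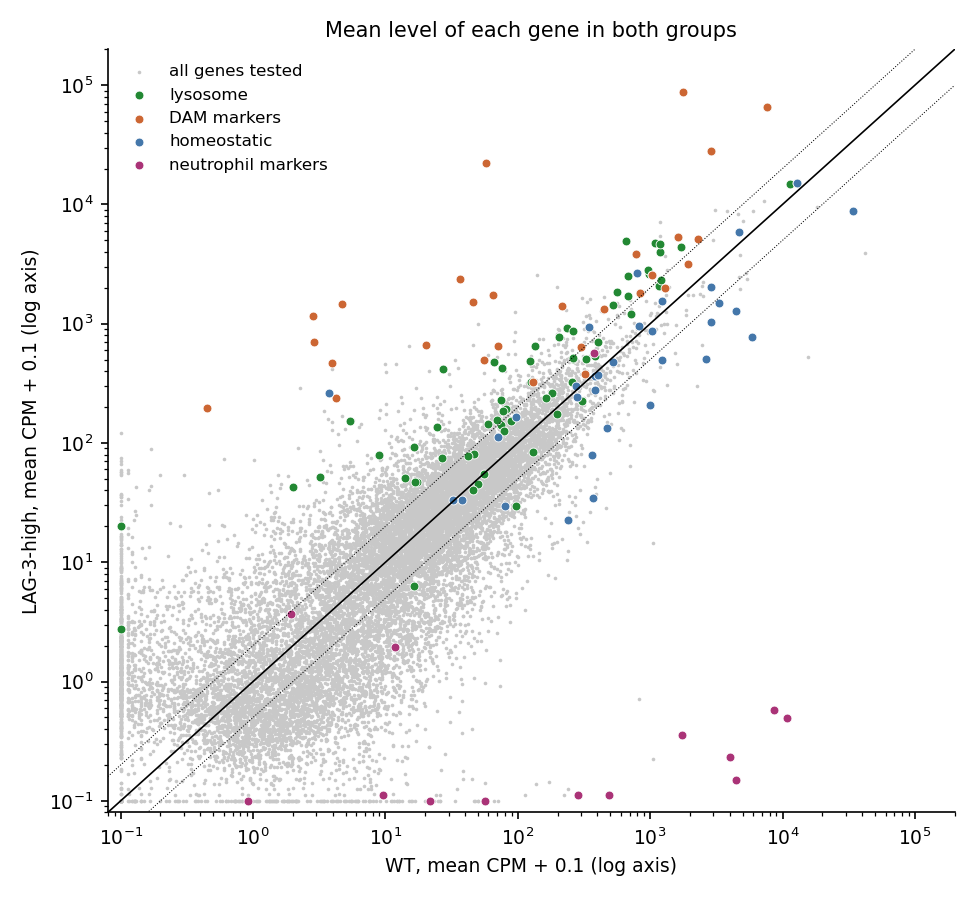
Mean CPM plus 0.1 of each of the 16508 genes tested in WT (horizontal, log axis) and LAG-3-high microglia (vertical, log axis), with the line of equality, dotted lines at a 2-fold difference, and coloured points for lysosomal genes, DAM markers, homeostatic genes and neutrophil markers. Most DAM markers and lysosomal genes lie above the line, and the 11 neutrophil markers called lower, of 14 tested, lie below it.

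Lysosomal genes rose in most enzyme classes, and least among the sulphatases. Of 69 tested, 41 were called higher (36 without WT replicates 1 and 4) and 1 lower, with a median log2 fold change of 1.38. With the correction for length and GC content the counts were 30 and 4. Of 6 sulphatases 2 were called higher, with a median log2 fold change of 0.34. With that correction 1 sulphatase was called higher and 2 lower, with a median of -0.10. Among the cathepsins, *Ctsd*, the main aspartic protease of the lysosome, was at 5638, 8042, 11735 and 5115 CPM in WT and 69346, 72373, 68515, 53728 and 64063 CPM in LAG-3-high libraries. *Ctsb*, a cysteine protease, was at 1875, 3086, 5228 and 1241 CPM in WT and 27507, 27631, 29146, 27497 and 28345 CPM in LAG-3-high libraries. Both genes separated the groups, with a narrow spread in LAG-3-high (log2 fold changes 3.10 and 3.29, edgeR adjusted p = 2.74e-06 and 2.08e-05). *Ctsa*, which protects other lysosomal enzymes, rose by 2.13 and *Ctsz* by 1.72, but *Ctsz* was not called with the length and GC correction (0.92). *Ctsl* rose by 1.13 and was not called without WT replicate 2 (0.91) or with that correction (0.92). *Ctss*, a cathepsin of antigen presentation, was at 6619 to 16886 CPM in WT and 13864 to 15690.3 CPM in LAG-3-high libraries and was not called, except with that correction (1.24).

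Enzymes that strip sugars and digest lipids made up much of the list. Of 15 glycosidases 9 were called higher, and of 15 lipid hydrolases and related enzymes 10 were. *Glb1*, beta-galactosidase, was at 13.6, 49.8, 6.27 and 39.2 CPM in WT and 405, 426, 409.9, 342 and 492 CPM in LAG-3-high libraries. *Naglu*, which degrades heparan sulphate, was at 49.7, 104, 76.8 and 35.3 CPM in WT and 510.2, 483, 469.9, 474 and 455 CPM in LAG-3-high libraries. Neither gene's groups overlapped. *Hexa* and *Gusb* rose by 1.88 and 1.98. *Psap*, the precursor of the saposins that present lipids to hydrolases, was at 419, 990.2, 890.1 and 332 CPM in WT and 5931, 4539.9, 5052, 4383 and 4950.1 CPM in LAG-3-high libraries (log2 fold change 2.92, edgeR adjusted p = 1.99e-05). *Lipa*, the acid lipase, *Gm2a*, the GM2 activator, and *Galc*, which digests galactosylceramide of myelin, rose by 2.27, 1.98 and 4.07. *Npc2*, a cholesterol carrier of the lysosome, rose by 1.45, although not with the length and GC correction (0.67), while its membrane partner *Npc1* had a log2 fold change of -0.63 and was not called. *Grn*, progranulin, which moves to lysosomes with prosaposin, was at 1006, 991, 1703 and 1029 CPM in WT and 4919.6, 4758, 4662, 4456 and 4676 CPM in LAG-3-high libraries (log2 fold change 1.99, edgeR adjusted p = 3.99e-06). *Gnptab*, which makes the mannose 6-phosphate tag, rose by 4.86, and *Igf2r*, a receptor for that tag, had no count in WT and was at least 104-fold higher in LAG-3-high libraries, at 15.5, 16.4, 27.9, 20.1 and 21.1 CPM. *Sort1*, sortilin, which takes up progranulin, was the 1 lower gene (log2 fold change -1.72, edgeR adjusted p = 0.00586).

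TFEB and its relatives drive many lysosomal genes through E-box motifs near their starts. *Tfeb* itself was called higher (1.44) with all libraries and not without WT replicates 1 and 4 (0.98) or with the length and GC correction (0.85). The 250 bases before the annotated start were read from GRCm39 for each tested gene and searched on both strands for CACGTG and, overlapping it, for GTCACGTG. GTCACGTG stood before 7 of the 49 lysosomal and V-ATPase genes called higher (14.3%), 1 of the 37 not called (2.70%) and 2.34% of all 16498 windows. CACGTG stood before 20.4% of those called higher, 2.70% of those not called, 12.6% of all 87 tested and 7.32% of all windows. It also stood before 4 of the 32 homeostatic genes (12.5%). These shares were not compared by a test, and a part of TFEB in the rises was not tested. The stretches of 5 of these 7 genes are shown as examples, chosen among the genes named in this report. Each is read 5′ to 3′ on the strand of its gene, from up to 30 bases before to 30 bases after the motif. GTCACGTG or its reverse complement CACGTGAC is in capitals. A match describes these letters and not a bound site. In GRCm39 the stretches lie at chr7:141941776-141941839 (minus strand) for *Ctsd*, chr8:85635089-85635156 (plus strand) for *Dnase2a*, chrX:133501913-133501980 (minus strand) for *Gla*, chr9:114230066-114230133 (plus strand) for *Glb1* and chr17:12988615-12988673 (minus strand) for *Igf2r*.
Ctsd: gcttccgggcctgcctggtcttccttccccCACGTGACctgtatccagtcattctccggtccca
Dnase2a: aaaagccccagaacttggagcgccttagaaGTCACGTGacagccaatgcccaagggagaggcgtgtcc
Gla: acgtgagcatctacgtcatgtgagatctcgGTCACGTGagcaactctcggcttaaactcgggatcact
Glb1: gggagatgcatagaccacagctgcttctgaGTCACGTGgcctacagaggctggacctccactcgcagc
Igf2r: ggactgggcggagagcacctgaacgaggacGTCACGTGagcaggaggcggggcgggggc
The motif began 34 bases before the start of *Ctsd* and 70, 46, 48 and 29 bases before those of *Dnase2a*, *Gla*, *Glb1* and *Igf2r*. The log2 fold changes of *Dnase2a*, an acid DNase, and *Gla*, alpha-galactosidase A, were 1.26 and 3.16. The call for *Gla* (edgeR adjusted p = 0.0679) was lost without WT replicate 2 (2.96) or any 1 of LAG-3-high replicates 1 to 4 (3.14 to 3.18), and with the length and GC correction (2.83).

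The proton pump that acidifies lysosomes rose in part: 8 of 18 V-ATPase genes were called higher (7 without WT replicates 1 and 4), with a median of 0.46. *Atp6v0c*, of the membrane ring, was at 283, 385, 468 and 240.2 CPM in WT and 1206, 1199, 1184, 1074 and 1206 CPM in LAG-3-high libraries. *Atp6v0a1*, a membrane subunit, and *Atp6v1a*, *Atp6v1b2* and *Atp6v1c1*, of the ATP-splitting sector, rose by 4.10, 2.21, 1.65 and 1.91. Of 41 autophagy genes 6 were called higher (14.6%, against 12.1% of all genes) and 2 lower (4.88%, against 14.9%), or 5 and 3 without WT replicates 1 and 4. *Gabarap*, an ATG8 protein of the autophagosome, rose by 1.40, and *Pink1* rose by 1.67 (0.86 and not called with the length and GC correction).

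**Figure D5:**
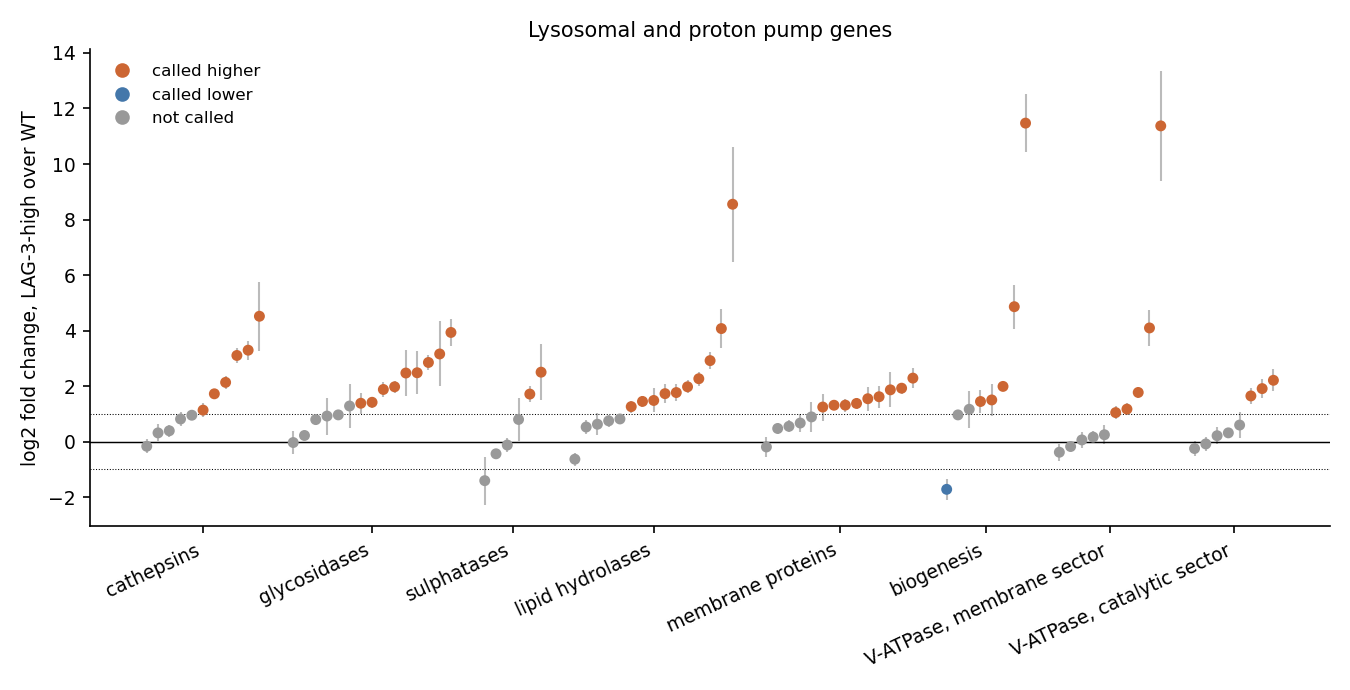
Log2 fold change (points, with bars of 1 standard error from edgeR) of 69 lysosomal and 18 V-ATPase genes by role, coloured by call, with dotted lines at 1 and -1. Called rises (orange) appear in each of the 8 roles, and *Sort1* is the 1 called fall (blue). *Acp5*, *Atp6v0d2* and *Igf2r*, with at most 1 count over the WT libraries, are drawn at fitted values that are not bounds.

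Genes for taking up, storing and exporting lipid rose as well. Of 39 tested, 20 were called higher (16 without WT replicates 1 and 4) and 1 lower, with a median log2 fold change of 1.45. *Apoc1*, a lipoprotein gene beside *Apoe*, had no count in any WT library and was at 50.3, 19.4, 32.7, 24.6 and 57.3 CPM in LAG-3-high libraries, at least 190.4-fold higher. *Apoc2* and *Apoc4* of the same cluster rose by 3.49 and 2.68, but *Apoc2* was not called with the 2 groups fitted alone. *Soat1*, which esterifies cholesterol for storage, was at 43.1, 110.0, 145 and 39.2 CPM in WT and 596, 570.4, 525, 510.4 and 606 CPM in LAG-3-high libraries (log2 fold change 2.73, edgeR adjusted p = 0.000158). *Plin2*, which coats lipid droplets, and *Nceh1*, a cholesteryl ester hydrolase, rose by 2.27 and 4.41. The cholesterol exporters followed. *Abca1* was at 192, 155, 117 and 159 CPM in WT and 465, 381, 381, 318 and 392 CPM in LAG-3-high libraries, and *Abcg1* was at 28.2, 12.8, 18.5 and 64.6 CPM in WT and 189.5, 216, 198, 163 and 193 CPM in LAG-3-high libraries. Both separated the groups (log2 fold changes 1.31 and 2.63). Of 23 cholesterol synthesis genes 5 were called higher (6 without WT replicates 1 and 4), among them *Hmgcs1* (1.53), *Dhcr7* (4.59) and the regulator *Srebf2* (1.18), the last not with the length and GC correction (0.27). *Hmgcs1* was not called with the 2 groups fitted alone.

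Phagocytosis genes were mixed, with 11 of 43 called higher (9 of 44 without WT replicates 1 and 4) and 3 lower. Beside *Axl*, the immunoglobulin-like receptor *Cd300lb* was at 0.918, 10.9, 27.7 and 0 CPM in WT and 119, 136, 109.7, 144 and 128 CPM in LAG-3-high libraries. *Mertk*, the sister receptor of AXL, had a log2 fold change of -0.07 and overlapped. *Rab7b*, of late endosomes, rose by 5.76 and *Lamp1*, a lysosomal membrane protein, by 1.55, the latter not called without WT replicates 1 and 4 (1.29). *Stab1*, a scavenger receptor, fell by 1.30. The Fc receptors *Fcgr2b*, *Fcgr3* and *Fcer1g* were not called, with log2 fold changes of 0.16, -0.17 and -0.44.

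Complement genes moved unevenly, with 7 of 19 called higher and 2 lower (7 and 2 of 20 without WT replicates 1 and 4). *C1qa*, a chain of the recognition molecule C1q, was at 711, 1679.7, 1786 and 547 CPM in WT and 5905, 5269, 5703, 4925 and 5564 CPM in LAG-3-high libraries (log2 fold change 2.21, edgeR adjusted p = 0.000229). The chains that assemble with it, *C1qb* and *C1qc*, overlapped between groups, with log2 fold changes of 0.56 and 0.54. Without WT replicates 1 and 4 these were 1.03, which was called higher, and 0.98. *C3ar1*, the C3a receptor, was at 198, 207, 154 and 229 CPM in WT and 842, 765, 794, 827 and 868 CPM in LAG-3-high libraries, clear of overlap (log2 fold change 2.06, edgeR adjusted p = 2.25e-06). *C3* itself was at 9.43, 94.0, 29.6 and 5.39 CPM in WT and 80.2, 73.1, 67.6, 54.9 and 82.4 CPM in LAG-3-high libraries and was not called. Without WT replicate 2 it was at 2.28 and called. *Cfp*, properdin, was called lower (-4.42), though not without WT replicate 3 (-3.37).

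MHC class I genes rose in part, and genes of class II, the classical ligand of LAG-3, did not pass the test. The difference between the lists was not tested. Of 21 class I presentation genes 9 were called higher (8 without WT replicates 1 and 4). *H2-D1*, a class I heavy chain, was at 1074, 961, 1798 and 877 CPM in WT and 8159.6, 5553, 7716, 7299 and 7080.4 CPM in LAG-3-high libraries (log2 fold change 2.60, edgeR adjusted p = 3.50e-06). *H2-K1*, the other classical heavy chain, rose by 1.43 and *Calr*, a chaperone of class I loading, by 1.30. H2 genes are close in sequence, and how Salmon shared reads among them was not tested. Of 13 class II presentation genes, 0 were called by edgeR, 4 had an unadjusted p below 0.05, and DESeq2 called 2 higher and 1 lower (0 higher and 1 lower by edgeR without WT replicates 1 and 4). *H2-Ab1* was at 207, 18.3, 904 and 17.6 CPM in WT and 207, 288, 294, 434 and 187 CPM in LAG-3-high libraries, and the groups overlapped. *Cd74*, the invariant chain, was at 81.9, 19.2, 817 and 3.36 CPM in WT and 976, 1209, 1393, 2024 and 886 CPM in LAG-3-high libraries. Its groups were separate but WT varied widely (log2 fold change 2.49, edgeR adjusted p = 0.128), and it was called without WT replicate 3 (5.24) and by DESeq2 (2.56). Of 5 other ligands of LAG-3, 3 were below the filter on low counts, *Fgl1* among them, and *Lgals3* rose. *Aplp1*, an amyloid precursor-like protein, had a log2 fold change of 2.47 and was not called (edgeR adjusted p = 0.421), except without WT replicate 2, the 1 WT library with a count.

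Interferon-stimulated genes gave 10 of 40 higher and 2 lower (9 and 3 without WT replicates 1 and 4), with a median of 1.21. DESeq2 called 17 higher and 2 lower. Every LAG-3-high library lay above every WT library for 3 of the 40, and for 2040 of all 16508 genes tested. *Irf7*, the amplifier of type I interferon, was at 1.07, 2.96, 26.3 and 0.381 CPM in WT and 98.9, 9.21, 70.7, 145 and 53.3 CPM in LAG-3-high libraries, and the ranges met (log2 fold change 3.29, edgeR adjusted p = 0.0384). *Isg15* and *Oas3* rose by 4.57 and 4.42, and their groups also overlapped, with 1.13 and 0.267 CPM in LAG-3-high replicate 2 against up to 1.75 and 1.65 CPM in WT. With the 2 groups fitted alone, *Irf7* and *Isg15* were not called. *Ifit2* and *Rsad2*, with log2 fold changes of 2.76 and 2.69, did not pass the test (edgeR adjusted p = 0.165 and 0.178), and both were called without WT replicate 3, where *Ifit2* was at 4.59, and by DESeq2 (2.82 and 2.77). *Sting1*, the adaptor of cytosolic DNA sensing, fell from 302, 453, 550.5 and 482 CPM in WT to 195, 179, 165, 173 and 135 CPM (log2 fold change -1.40, edgeR adjusted p = 0.000241).

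Inhibitory receptors other than LAG-3 were among the called genes. Of 20 checkpoint genes 7 were higher and 2 lower (5 and 3 of 23 without WT replicates 1 and 4). *Pdcd1*, which encodes PD-1, was at 1.73, 14, 26.3 and 49.0 CPM in WT and 211, 204, 253, 219 and 156 CPM in LAG-3-high libraries. *Cd274*, its ligand PD-L1, was at 2.35, 2.09, 7.23 and 0.825 CPM in WT and 92.9, 64.9, 114, 86.9 and 72.5 CPM in LAG-3-high libraries. *Lilrb4a*, an inhibitory receptor of the leukocyte immunoglobulin-like family, was at 9.74, 24.1, 75.6 and 90.2 CPM in WT and 961, 792, 1018, 1269.5 and 938 CPM in LAG-3-high libraries. In each of the 3 the groups were separate, and the genes rose by 3.20, 4.78 and 4.32 (edgeR adjusted p = 0.00335, 6.92e-05 and 9.58e-05). *Havcr2*, which encodes TIM-3, and *Lair1*, a collagen receptor, were not called (0.45 and -0.31). *Cd47*, the ligand that restrains phagocytosis, fell by 1.07, but was not called with the length and GC correction (-0.89). *Cd22*, a sialic acid receptor of B cells that microglia can also express, was at 14.6, 5.05, 14.6 and 18.7 CPM in WT and 253, 224, 224, 182 and 202 CPM in LAG-3-high libraries (log2 fold change 4.03, edgeR adjusted p = 4.40e-06).

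Chemokine, cytokine and Toll-like receptor genes were called in both directions. Of 21 chemokine genes 8 were higher (38.1%, against 12.1% of all genes) and 3 lower (14.3%, against 14.9%). Without WT replicates 1 and 4 these were 8 and 4 of 25. *Cxcl13*, a B cell attractant, had no count in WT and reached 1.92, 2.07, 5.60, 5.46 and 15.2 CPM in LAG-3-high libraries, at least 31.2-fold higher. Of 28 cytokine and feedback genes 7 were higher and 4 lower (7 and 3). *Il1rn*, the interleukin 1 receptor antagonist, and *Osm*, oncostatin M, rose by 4.32 and 4.28, whereas *Il18* fell by 1.84 (-0.93 and not called with the length and GC correction) and *Nfkb1*, an NF-kB subunit, by 1.62. Neither *Il1rn* nor *Osm* was called with the 2 groups fitted alone. *Tnf* was at 4.79, 0.436, 0 and 0 CPM in WT and 12.7, 4.94, 2.83, 3.69 and 3.88 CPM in LAG-3-high libraries and was not called. Without WT replicate 1 it was at 5.30 and called. Of 25 Toll-like receptor genes 3 were higher and 2 lower (4 and 3 of 26). *Tlr2* was at 77.7, 222, 247 and 74.4 CPM in WT and 792, 805, 719, 666 and 760.4 CPM in LAG-3-high libraries (log2 fold change 2.27, edgeR adjusted p = 0.000432).

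Growth factor and matrix genes had 16 of 27 members called higher (13 without WT replicates 1 and 4) and a median of 2.16. *Fn1*, fibronectin, was at 30.9, 2.18, 7.57 and 19.2 CPM in WT and 984, 393, 569, 533 and 760.3 CPM in LAG-3-high libraries (log2 fold change 5.43, edgeR adjusted p = 0.00025). *Timp2*, an inhibitor of matrix metalloproteinases, *Plau*, urokinase, and its receptor *Plaur* rose by 1.88, 4.21 and 2.12, but *Plaur* was not called with the 2 groups fitted alone. *Mmp12*, macrophage elastase, rose by 4.13, and *Mmp9*, a protease of neutrophil granules, was at 36.1, 2.79, 188 and 0 CPM in WT and had no count in LAG-3-high libraries. Of 27 adhesion genes 5 were higher and 5 lower (5 and 5 of 28 without WT replicates 1 and 4). With all libraries each was 18.5% of the list, against 12.1% higher and 14.9% lower of all genes. The rises were all among the 13 integrins, of which 2 fell, and the other 3 falls were among the 7 selectins and their partners. *Itga5*, the fibronectin receptor chain, was at 2.14, 11.9, 1.24 and 0 CPM in WT and 119, 144, 114, 138 and 133 CPM in LAG-3-high libraries, and *Itgb5* fell by 1.45, a call lost without WT replicates 1 and 4 (-0.93).

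Glycolysis genes rose in part, and none of the listed nuclear genes of oxidative phosphorylation was called. The difference between these lists was not tested. Of 28 glycolysis and pentose phosphate genes 12 were higher (10 without WT replicates 1 and 4), with a median of 0.98. *Hif1a*, the hypoxia factor that drives glycolytic genes, was at 78.7, 76.7, 109.9 and 117 CPM in WT and 866, 895, 748, 768 and 1001 CPM in LAG-3-high libraries. *Aldoa*, aldolase A, was at 294, 384, 317 and 305 CPM in WT and 1275, 1225, 1149, 1099 and 1054 CPM in LAG-3-high libraries. Both separated fully (log2 fold changes 3.16 and 1.84, edgeR adjusted p = 1.72e-06 and 2.25e-06). *Pfkl*, of an early committed step, *Pkm*, of the last step, *Ldha*, which makes lactate, and *Slc16a3*, which exports it, rose by 2.05, 2.45, 1.47 and 2.84. Of 41 nuclear genes of oxidative phosphorylation 0 were called by edgeR, 10 had an unadjusted p below 0.05, and DESeq2 called 3 lower. The count depended on the WT libraries and the correction: 7 were called higher without WT replicates 1 and 4 and 12 with the length and GC correction. The genes of the mitochondrial genome, of which *mt-Atp6* and *mt-Cytb* were called lower, are not in this list.

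Iron and redox genes included some of the best counted rises. *Fth1*, the ferritin heavy chain, was at 4161, 1256, 2421 and 4569 CPM in WT and 9949.9, 9223, 8485, 8484 and 8619 CPM in LAG-3-high libraries. *Ftl1*, the light chain, was at 5491, 1436, 2434 and 5898 CPM in WT and 9192, 8780.2, 8638, 8361 and 9257 CPM in LAG-3-high libraries. Both were clear of overlap, but *Ftl1* was not called without WT replicate 2 (1.21 with it, 0.96 without). *Hmox1*, which breaks down haem, was at 5.20, 11.2, 6.95 and 0.698 CPM in WT and 103, 93.7, 91.6, 118 and 117 CPM in LAG-3-high libraries, without overlap. *Slc11a1*, an iron transporter of the phagosome, was at 133, 263, 245 and 173 CPM in WT and 805, 747, 839, 749 and 729 CPM in LAG-3-high libraries. In all, 7 of 21 iron genes and 8 of 26 antioxidant genes were called higher, and 1 and 4 lower (7 and 9 higher, 1 and 3 lower without WT replicates 1 and 4). *Prdx1*, a peroxidase, and *Txnrd1*, thioredoxin reductase, rose by 2.13 and 2.08. *Slc40a1*, the iron exporter, and *Gpx4*, which guards lipids against peroxidation, were not called (-0.32 and 0.38).

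Cell cycle genes gave few calls. Of 48, 6 were higher (12.5%, against 12.1% of all genes) and 2 lower, and without WT replicates 1 and 4 the balance turned to 4 higher and 5 lower. *Mki67*, a marker of dividing cells, was at 0, 11.2, 13.1 and 0 CPM in WT and 0, 21.1, 0.369, 12.2 and 1.97 CPM in LAG-3-high libraries, with libraries near 0 in both groups. *Top2a*, another such marker, was at 0.102, 0.871, 49.0 and 0 CPM in WT and 1.41, 28.0, 0, 31.3 and 8.46 CPM in LAG-3-high libraries. *Hmgb2*, a chromatin protein of cycling cells, fell by 3.49 (edgeR adjusted p = 0.000276), and *Cdkn1a*, the inhibitor p21, rose by 1.72. In WT replicates 1 to 4 *Hmgb2* was at 105, 266, 198 and 539 CPM, ranked as their neutrophil sums were. Its mean in LAG-3-low libraries was 410 CPM. Whether its fall came from neutrophil transcripts was not tested. Of 15 TGF-beta genes 1 was higher and 3 lower, which turned to 2 higher and 1 lower of 17 without WT replicates 1 and 4. *Tgfb2*, without a count in WT, was at least 42.1-fold higher, and the inhibitor *Smad7* fell by 2.91, although not without WT replicates 1 and 4 (-1.24). Stress genes had larger shares called higher. Of 26 immediate early genes 7 were higher (26.9%) and 3 lower (6 and 3 without WT replicates 1 and 4), with *Egr2* and *Atf3* up by 5.47 and 2.69 and *Klf2* down by 3.50. The list as a whole did not rise: its median was -0.08, as over all genes tested, and 12 of the 26 had a positive log2 fold change. Of its 5 heat shock genes 0 were called higher and 1 lower. Of 29 ER stress genes 9 were higher (31.0%) and 2 lower (7 and 0), with *Hyou1*, a chaperone, up by 3.59 and *Hspa5*, the chaperone BiP, at 0.65 and called without WT replicate 3 alone (1.03).

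Outside the marker lists of other cell types, the 8 genes with the highest fitted log2 fold changes had no count in any WT library. Such fitted values depend on the prior count, so these genes are given by lower bounds and not ranked against genes counted in WT. *Gm10359*, a processed pseudogene, was at 166, 93.7, 93.2, 132 and 126 CPM in LAG-3-high libraries, at least 632-fold higher, and a pseudogene shares sequence with its parent. *Cd200r4*, a receptor of the CD200 receptor family, *Pianp*, a ligand of the PILR receptors, and *Mamdc2* were at least 385, 368 and 343-fold higher. *Bcar3*, a signalling adaptor, *Myof*, a membrane repair protein, *Actr3b*, an actin-related protein, and *Lox*, a collagen crosslinker, were at least 308, 293, 292 and 284-fold higher. For *Lox*, the LAG-3-high libraries held 66.0, 51.8, 51.0, 39.9 and 65.9 CPM. Each bound is the mean LAG-3-high level over the CPM that 3 counts give per WT library, and covers counting error only.

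The 8 genes with the lowest fitted log2 fold changes outside the marker lists included several known from neutrophils. *Lrg1*, a glycoprotein of neutrophil granules, was at 13.1, 168, 32.6 and 51.1 CPM in WT and had no count in LAG-3-high libraries, at least 339-fold lower. *Itgb2l*, *Ly6a2*, *Trem3* and *Plbd1* were at least 257, 255, 243 and 237-fold lower, each with no count in LAG-3-high. *Wfdc21* was at 81.7, 208, 65.9 and 539 CPM and *Serpinb1a*, an inhibitor of neutrophil proteases, at 46.1, 397, 119 and 396 CPM in WT, and neither exceeded 0.123 CPM in a LAG-3-high library. *Mgl2*, a lectin of macrophages and dendritic cells, was at 41.4, 0, 244 and 0 CPM in WT, present in 2 libraries of 4, so that the groups met at 0.

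Most neutrophil markers were also lower. Of 14 tested, 11 were called lower (11 of 15 without WT replicates 1 and 4), and 7 of the 15 listed had at most 3 counts in every LAG-3-high library. *S100a8*, a calcium-binding protein of neutrophils, was at 2059.7, 6799, 2139 and 23534 CPM in WT and at most 1.01 CPM in LAG-3-high libraries. *Ngp* and *Camp*, of neutrophil granules, ranged from 1676 to 22399 and from 704 to 12239 CPM in WT and stayed at or below 1.66 and 0.246 CPM in LAG-3-high libraries. *Csf3r*, the G-CSF receptor that microglia also carry, was at 515, 565, 656, 480.4 and 616 CPM in LAG-3-high libraries and made up most of the summed level there. The LAG-3-low fraction of SOD1G93A microglia summed to 23653 to 67926 CPM over this list, within the range of WT. Removing the list from the fit left 1990 genes higher and 2450 lower, but other genes of these cells remained, and their part in the falls was not tested.

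In WT, the marker sums of other cell types were small beside the neutrophil sum. Monocyte markers summed to 81.2 to 3166 CPM in WT and 393 to 990 CPM in LAG-3-high libraries. There 7 of the 10 had at most 3 counts in every library and *Fn1* made up most of the sum. *Ly6c2*, of inflammatory monocytes, was at 20.2, 39.6, 29.0 and 45.0 CPM in WT and 0 in LAG-3-high. Border macrophage markers summed to 320, 181, 980 and 179 CPM in WT replicates 1 to 4 and 181 to 282 CPM in LAG-3-high libraries. Of the 8 border macrophage markers tested, 4 were called lower and 1 higher. *Cd163* was at 34.4, 0, 58.7 and 0 CPM and *Lyve1* at 16.2, 0, 87.1 and 0 CPM in WT. Neither had a count in LAG-3-high. *Ms4a7* went the other way, from a mean of 21.6 CPM in WT to 119 CPM in LAG-3-high, without overlap. It was not called (log2 fold change 2.45, edgeR adjusted p = 0.120). T and NK cell markers summed to at most 9.44 CPM, neuron markers to at most 6.20 CPM and erythroid markers to at most 0.0871 CPM in either group. Astrocyte and oligodendrocyte markers summed to 89.8 to 223 and 112 to 211 CPM in WT and 128 to 156 and 201 to 260 CPM in LAG-3-high libraries. Endothelial and mural markers summed to 5.87 to 26.0 CPM in WT and 73.6 to 111 CPM in LAG-3-high, nearly all of it *Flt1*, a VEGF receptor, at 108, 101, 77.3, 69.9 and 90.9 CPM. *Gfap*, of astrocytes, had no count in WT and was at 46.1, 57.5, 24.6, 27.3 and 21.0 CPM in LAG-3-high libraries. B cell markers summed to 255 to 594 CPM in WT and 333 to 433 CPM in LAG-3-high libraries. The microglial gene *Csf1r* was present in every library of both groups and was not called. Of other microglial genes, *P2ry12*, *Tmem119*, *Cx3cr1*, *Siglech*, *Sall1* and *Gpr34* were called lower and *Fcrl2* higher, as given above.

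The best counted falls outside these lists were in RNAs that marked WT replicates 1 and 4. *Gm59785*, a long noncoding RNA on the plus strand within the *Malat1* locus (chr19:5851791-5852700, GRCm39), was at 72757, 8320.1, 20713 and 64913 CPM in WT and 3097, 4184, 3531, 4405 and 4381 CPM in LAG-3-high libraries. *Malat1* was at 15173, 3238, 6364 and 37929.5 CPM in WT and 679, 609.7, 399, 494 and 437 CPM in LAG-3-high libraries. Their log2 fold changes of -3.41 and -4.90 became -1.82 and -3.14 without WT replicates 1 and 4, and both were still called. The kit does not keep strand, so reads of overlapping transcripts there cannot be separated. *mt-Atp6* and *mt-Cytb*, of the mitochondrial genome, lost their calls, from -1.18 and -1.28 to 0.30 and 0.04. Neither was called without WT replicate 4 alone (-0.56 and -0.83), nor *mt-Atp6* without WT replicate 1 (-1.10) or LAG-3-high replicates 1, 3 or 4 (-1.17 to -1.15).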

How the data were processed

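Gene expression was measured by RNA-seq in CD11b+/CD45int cells sorted from lumbar spinal cord, with 4 libraries of WT, 5 of LAG-3-high and 5 of LAG-3-low cells. The authors trimmed reads with Trim Galore 0.6.7, quantified transcripts with Salmon 1.9.0 on GRCm39 and deposited estimated counts per gene, summed by tximport in R 4.2.1. The annotation release is not given in the sources used here. The deposited estimated counts were rounded to whole numbers, and 71 identifiers without a gene name held 0.0479% of them. Genes were filtered with filterByExpr (minimum count 10, minimum total 15), scaled by TMM and tested with edgeR 4.0.16 (R 4.3.3), using the robust quasi-likelihood F-test on all 14 libraries with 1 mean per group, so that LAG-3-low libraries helped to estimate the spread. P-values were adjusted over 16508 genes by the Benjamini-Hochberg method. The adjusted p below 0.1 and absolute log2 fold change above 1 follow the study's methods.

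The members and gene lists were chosen with earlier results of these data known. Named genes were *Lag3* and *Sod1*, the DAM and homeostatic markers, the 8 largest fitted and 8 most abundant changes in each direction outside the marker lists with a mean of at least 10 CPM, and from other lists the members with the 3 smallest adjusted p, the 2 most abundant and those needed to describe a list. Where WT had no count, a lower bound of the fold was computed from 3 counts per library, and these floors cover counting error only. Alternatives included DESeq2 1.42.0, other scaling, filters, covariates and left-out libraries. DESeq2 gave no adjusted p for *Itgax*, *Igf1*, *Csf1*, *Sod1*, *Itga5*, *Gla* and *Rab7b*. The fit was also run on simulated counts in which all groups shared the spread of each gene. That run cannot check the fit where WT libraries spread more widely than LAG-3-high libraries. Promoter windows of 250 bases were read from GRCm39. A few genes of these lists are counted but not reported by name here.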

Additional observations from a re-analysis of the deposited data

Results flagged for a closer look

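Within the groups of 4 or 5 libraries, 38 of 378 sets of gene levels had 1 library far from the others, by its gap to the nearest library over the whole range. Chance would flag about 1 in 20 such groups if values were normally spread, a rate not tested on these data. All values are CPM, and no cause was tested. LAG-3-high replicate 1 was the highest of its group for *Cfp* (3.04 CPM) and *Tnf* (12.7 CPM). LAG-3-high replicate 3 was the highest of its group for *Camp* (0.246 CPM), *Itgb5* (310.5 CPM), *Ngp* (1.66 CPM), *Serpinb1a* (0.123 CPM) and *Wfdc21* (0.0616 CPM). LAG-3-high replicate 4 was the lowest of its group for *Atp6v0c* (1074 CPM), *Atp6v1b2* (425 CPM), *C1qc* (7852 CPM) and *Tfeb* (27.8 CPM). LAG-3-high replicate 5 was the highest of its group for *Cxcl13* (15.2 CPM). LAG-3-high replicate 5 was the lowest of its group for *Gabarap* (314 CPM). WT replicate 1 was the highest of its group for *Apoc4* (8.41 CPM), *Gla* (30.6 CPM) and *Tnf* (4.79 CPM). WT replicate 2 was the highest of its group for *Aplp1* (1.57 CPM), *Il1rn* (5.32 CPM), *Itgb2l* (165 CPM) and *Osm* (5.23 CPM). WT replicate 3 was the highest of its group for *Atp6v0d2* (0.0565 CPM), *Cd74* (817 CPM), *Ch25h* (1.41 CPM), *Egr1* (13.7 CPM), *Grn* (1703 CPM), *Igf1* (15.4 CPM), *Irf7* (26.3 CPM), *Isg15* (1.75 CPM), *Mgl2* (244 CPM), *Rab7b* (13.4 CPM), *Rsad2* (12.1 CPM) and *Top2a* (49.0 CPM). WT replicate 4 was the highest of its group for *Ccl4* (1135 CPM), *Csf1* (80.0 CPM), *Fabp5* (16.3 CPM), *Hyou1* (4.89 CPM), *Klf2* (51.2 CPM) and *Plau* (3.74 CPM). For *Camp*, *Serpinb1a* and *Wfdc21* the other LAG-3-high libraries had no count, and for *Aplp1*, *Atp6v0d2* and *Ch25h* the other WT libraries had none, so that any count stands apart from them. The values of *Camp*, *Serpinb1a*, *Wfdc21* and *Atp6v0d2* rest on 4, 2, 1 and 1 counts.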

How the results depend on the processing

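*Lag3* kept its direction and its call under the alternatives tried, with log2 fold changes of 4.37 to 5.95. Against 2000 genes called higher and 2464 lower, the counts were 1121 and 1542 when the 2 groups were fitted alone, 1821 and 1446 with no filter on low counts, 1367 and 1629 with an absolute log2 fold change above 2, 1451 and 1784 with an adjusted p under 0.05, 2037 and 1563 without WT replicates 1 and 4 and 3079 and 2685 without WT replicates 2 and 4, the last 2 chosen after seeing the data. Leaving out 1 library at a time gave 1660 to 3114 higher and 1952 to 2968 lower, with the highest counts without WT replicate 2. DESeq2 gave 2341 and 3013, RLE size factors 2005 and 2555, and no TMM factors 1488 and 3234, which moved the median log2 fold change of all genes from -0.08 to -0.39 and lowered the share of calls that were higher. Listed sex as a covariate gave 1909 and 2088. A replicate block gave 1714 and 1295. Whether the numbers pair LAG-3-high with LAG-3-low libraries was not tested, and the fit of all 14 libraries paired none. Deviations of same-numbered WT and LAG-3-high libraries correlated at only -0.0215 to 0.00848, so the block was used only here. Among named genes it added calls for *C3* (1.78), *Tnf* (4.10) and *Rsad2* (5.71) and ended those of *Cfp*, *Lyve1*, *Mgl2*, *mt-Atp6* and *mt-Cytb*. Of 160 named genes that were called, 98 kept their call and direction in every alternative that gave an adjusted p. Fitting the 2 groups alone ended 12 calls, those of *Apoc2*, *Cd52*, *Cfp*, *Csf1*, *Gla*, *Hmgcs1*, *Il1rn*, *Irf7*, *Isg15*, *Osm*, *Plaur* and *mt-Atp6*. The sign changed in at least 1 alternative for 2 of the called genes, *mt-Atp6* and *mt-Cytb*, and for 11 genes that were not called. With DESeq2, *H2-Ab1* was 0.038. With RLE size factors, *H2-Ab1* was 0.038. With the length and GC correction, *Csf1r* was -0.28, *Csf3r* was -0.0009, *Fcer1g* was 0.57, *Fcgr2b* was -0.038, *Fcgr3* was 0.31, *H2-Ab1* was 0.093, *Spi1* was -0.24, *mt-Atp6* was 0.96 and *mt-Cytb* was 0.14. With listed sex as a covariate, *H2-Ab1* was 0.41. With no filter on low counts, *H2-Ab1* was 0.13 and *Mertk* was 0.083. With the replicate block, *H2-Ab1* was 0.84. Without TMM factors, *Csf1r* was -0.029, *Fcgr2b* was -0.13, *Mki67* was -0.17, *Spi1* was -0.24 and *Top2a* was -0.18. Without WT replicates 1 and 4, *Csf1r* was -0.031, *Fcer1g* was 0.77, *Fcgr3* was 0.13, *Mki67* was -0.72, *Spi1* was -0.26, *Top2a* was -0.75, *mt-Atp6* was 0.30 and *mt-Cytb* was 0.043. Without WT replicates 2 and 4, *Fcgr2b* was -0.031 and *Top2a* was -0.82. With 1 library left out at a time, log2 fold changes ranged from -0.16 to 2.91 for *Ccl4*, -0.70 to 0.16 for *Fcer1g*, -0.41 to 1.82 for *H2-Ab1*, -0.30 to 0.27 for *Mertk*, -0.74 to 0.95 for *Mki67*, -0.091 to 0.39 for *Spi1* and -0.40 to 5.54 for *Top2a*. The causes of these changes were not tested. At the depth of these libraries, 3 counts corresponded to 0.194 CPM in WT and 0.196 CPM in LAG-3-high libraries, and lower values rest on very few counts.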
